A study of Mus musculus with 4 samples.

Results

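Tsukushi (Tsku) and 8 other small leucine-rich proteoglycan genes, Bgn, Dcn, Lum, Fmod, Ogn, Omd, Prelp and Aspn, were followed in single-cell RNA-seq libraries of mouse cerebral cortex. They were taken by gene symbol, 9 of the 57126 genes in the deposited matrices, and each symbol matched 1 row. Every library came from the cortex of 1 mouse, dissociated with trypsin and captured with the Asteria bead kit. The 4 groups were a Tsukushi knockout and a wild type at postnatal day 0 (P0 KO and P0 WT), and a knockout and a wild type at embryonic day 14.5 (E14.5 KO and E14.5 WT). The strain, the knockout allele and any treatment were not given in the sources used here. With 1 mouse a group, genotype, animal and library cannot be told apart and no test across animals is possible. The intervals below are 95% intervals for counting error alone (exact Poisson for a level, exact Clopper-Pearson for a share, conditional binomial for a ratio), and no p-value is given.

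Small leucine-rich proteoglycans are secreted proteins of the extracellular matrix whose core is an array of leucine-rich repeats, and many carry chondroitin, dermatan or keratan sulfate chains. Several bind collagen and shape its fibrils, and some bind growth factors or receptors. In the developing brain, fibrillar collagen is made mainly by the meninges and by cells around vessels. Tsukushi was described in chick embryos as a secreted protein that binds the signalling protein BMP and its antagonist chordin. Biglycan (Bgn), decorin (Dcn) and asporin (Aspn) form the first class of the family, lumican (Lum), fibromodulin (Fmod), Prelp and osteomodulin (Omd) the second, osteoglycin (Ogn) belongs to the third and Tsukushi to the fourth.

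The RefSeq promoter windows, from 250 bases before to 50 bases after a gene's start, were found for 7 of the 9 genes, with no entry matched for Dcn and Lum. Tsku is shown because it is the targeted gene, and Ogn, Omd and Aspn because they are neighbours in a row with Ecm2, a further family member, and were counted at very different levels. All are from GRCm38.p6, an earlier build than the GRCm39 of the deposited counts. They run 5′ to 3′ on the gene's strand, and capitals mark letters of 3 promoter motifs searched on both strands. The motif TATAAA is the core of the usual box upstream of a start. The motif CCAAT is bound by the nuclear factor NF-Y. The motif GGGCGG is bound by Sp family factors. The windows are chr7:98361279-98361578 (minus strand) for Tsku, chr13:49607765-49608064 (plus) for Ogn, chr13:49582212-49582511 (plus) for Omd and chr13:49544193-49544492 (plus) for Aspn.
Tsku: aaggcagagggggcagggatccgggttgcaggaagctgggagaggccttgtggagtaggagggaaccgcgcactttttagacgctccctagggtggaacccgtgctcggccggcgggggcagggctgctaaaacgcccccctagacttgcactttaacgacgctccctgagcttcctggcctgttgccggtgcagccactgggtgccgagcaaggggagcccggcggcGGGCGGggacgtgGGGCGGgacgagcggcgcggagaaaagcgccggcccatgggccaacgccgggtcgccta
Ogn: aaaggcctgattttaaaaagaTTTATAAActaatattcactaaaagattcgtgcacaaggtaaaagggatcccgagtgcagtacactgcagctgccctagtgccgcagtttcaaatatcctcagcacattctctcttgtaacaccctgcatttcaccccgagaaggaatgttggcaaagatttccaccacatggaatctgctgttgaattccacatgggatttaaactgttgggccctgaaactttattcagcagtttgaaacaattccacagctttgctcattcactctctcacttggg
Omd: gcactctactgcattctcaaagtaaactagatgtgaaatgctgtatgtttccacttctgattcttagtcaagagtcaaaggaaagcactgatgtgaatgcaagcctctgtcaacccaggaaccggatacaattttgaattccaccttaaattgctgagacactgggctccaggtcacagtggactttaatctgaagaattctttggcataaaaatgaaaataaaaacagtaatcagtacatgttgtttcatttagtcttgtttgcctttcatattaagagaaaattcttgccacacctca
Aspn: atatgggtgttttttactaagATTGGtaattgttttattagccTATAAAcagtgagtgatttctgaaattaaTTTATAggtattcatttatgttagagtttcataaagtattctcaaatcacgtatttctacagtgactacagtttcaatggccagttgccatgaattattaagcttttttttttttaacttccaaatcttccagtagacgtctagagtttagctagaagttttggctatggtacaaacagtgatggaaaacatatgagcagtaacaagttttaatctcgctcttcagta
The Tsku window was 69% G and C and held 2 GGGCGG matches, starting 22 and 9 bases before the gene's start. RefSeq lists a second, overlapping Tsku window (chr7:98361239-98361538), in which the same letters start 62 and 49 bases before the start. The median over all 32851 promoter windows was 52.7%, and 35.7% of them held GGGCGG. The other three were poorer in G and C, with 42.3% for Ogn, 37.7% for Omd and 31% for Aspn. The Ogn window held 2 overlapping TATAAA matches, at positions −229 and −227 from the gene's start. The Aspn window held 2 TATAAA matches, at −207 and −178, and 1 CCAAT match, at −229. All these matches lie in the far upstream part of their windows. TATAAA was found in 13.6% of all windows and CCAAT in 37.4%. None of these letters was in the Omd window. The matches are descriptions of the letters and not binding sites. In the RefSeq annotation Cenpp overlaps Ogn, Omd and Aspn; it had 132, 85, 243 and 77 counts in P0 KO, P0 WT, E14.5 KO and E14.5 WT, and no source used here says whether the counting used strand, so reads in shared stretches cannot be told apart.

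The kept barcodes numbered 1436 in P0 KO, 1047 in P0 WT, 4107 in E14.5 KO and 620 in E14.5 WT, with median counts of 5060, 4807, 2829 and 7345.5 and totals between 5606381 and 14404051 counts. Between 0 and 2 kept barcodes were shared by any pair of libraries. Projection neurons were present in all of them: barcodes with at least 3 counts of Neurod2 and Neurod6 made up 37.3% of P0 KO, 47.2% of P0 WT, 43.4% of E14.5 KO and 51.1% of E14.5 WT. The E14.5 animals differed in sex, with 6719 Xist counts in E14.5 KO and 3 in E14.5 WT, and Bgn lies on the X chromosome.

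Tsku, the targeted gene, had 0 counts in P0 KO, against 42 counts in P0 WT. In P0 KO the limit set for a count of 0, at 3 counts, is 0.337 counts per 1000000 counts (CPM), while P0 WT had 6.95 CPM (5.01 to 9.40). The exact Poisson interval of the 0 counts in P0 KO reaches 0.415 CPM. With the limit of 3 counts Tsku was 20.6-fold lower in P0 KO, a value that leaves out the counting error of the P0 WT level. At the P0 WT level 61.8 counts would have been counted in P0 KO. The library labelled E14.5 KO had 74 Tsku counts in 74 barcodes, or 5.14 CPM (4.03 to 6.45), against 54 counts or 9.63 CPM (7.24 to 12.6) in E14.5 WT. This count goes against a label of full loss of the transcript, so it is called below "the library labelled E14.5 KO", and comparisons with it are comparisons of libraries. The log2 ratio of the labelled E14.5 KO library over E14.5 WT was −0.91 (−1.43 to −0.37), short of the 2-fold mark, a log2 ratio of at least 1 in size, used throughout. The P0 WT level was below the E14.5 WT level by less than their counting intervals (log2 −0.47, −1.09 to 0.14).

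**Figure D1:**
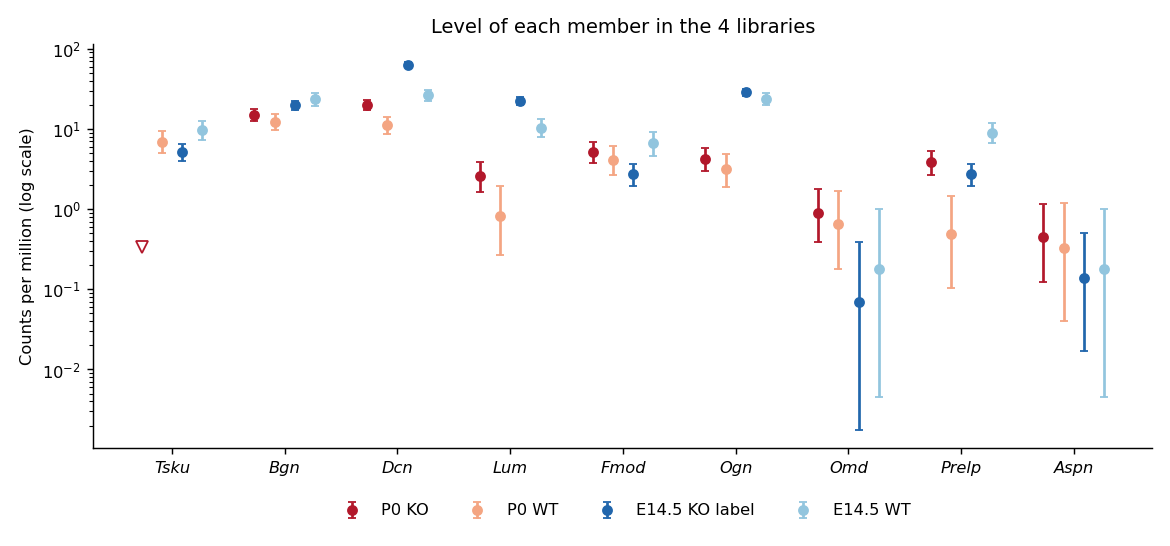
Level of each of the 9 genes in the 4 libraries, in CPM on a log axis, with exact Poisson 95% intervals for counting error; each point is 1 library of 1 mouse. The open triangle is the limit of 0.337 CPM for Tsku in P0 KO, which had 0 counts; Tsku had 6.95 CPM in P0 WT, 5.14 in the library labelled E14.5 KO and 9.63 in E14.5 WT.

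To see which cells held the members, barcodes were gated on counts of known markers, none of them a member. The fibroblast gate asked for at least 4 counts of Col1a1, Col1a2 and Col3a1 together. It held 27 barcodes of P0 KO (1.88%), 11 of P0 WT (1.05%), 117 of the library labelled E14.5 KO (2.85%) and 25 of E14.5 WT (4.03%). Most of these also passed another gate, since only 2, 3, 29 and 2 of them passed no other. Each barcode was therefore also placed in 1 of 7 classes, a step added after the data were seen. Collagen-led barcodes are those of the fibroblast gate in which the 3 collagen genes outnumber the gate genes of choroid plexus, endothelium and radial glia; choroid-led and endothelial-led barcodes are defined in the same way. The remaining classes are a Foxj1 gate (Foxj1, Ccdc153 and Rsph1, genes of cells with motile cilia), the other barcodes of the glial gate (Slc1a3, Hes5 and Sox9), the other barcodes of the neuronal gates, and the rest.

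There were 18 collagen-led barcodes in P0 KO, 7 in P0 WT, 104 in the library labelled E14.5 KO and 14 in E14.5 WT. Of 10 meningeal fibroblast markers, among them Foxc1 and Slc6a13, 10, 9, 10 and 10 were higher in collagen-led barcodes than in the remaining ones. Their summed level was 4822 CPM in collagen-led barcodes against 406 CPM in the remaining barcodes of P0 KO, 5113 against 224 in P0 WT, 3828 against 405 in the library labelled E14.5 KO and 3811 against 318 in E14.5 WT. The choroid plexus list (Ttr, Otx2, Aqp1 and Slc4a5) had 26224 CPM in the fibroblast gate against 8741 CPM in the remaining barcodes of the library labelled E14.5 KO, and 69384 against 4962 CPM in E14.5 WT. In collagen-led barcodes the same list had 154 CPM against 9983 CPM in the remaining barcodes of the library labelled E14.5 KO, and 129 against 10396 CPM in E14.5 WT. Of the collagen-led barcodes, 15, 3, 51 and 9 also passed the mural gate (Rgs5, Kcnj8 and Vtn), and the 5 further mural markers summed to 297 CPM in collagen-led barcodes against 159 in the remaining ones in P0 KO, 104 against 95.4 in P0 WT, 230 against 34.6 in the library labelled E14.5 KO and 773 against 45.7 in E14.5 WT; the part of mural cells in the results below was not tested.

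Counts of Tsku came from several classes of barcodes. Neuronal barcodes held 47.6% of its counts in P0 WT, 60.8% in the library labelled E14.5 KO and 51.9% in E14.5 WT, and the glial class held 26.2%, 13.5% and 25.9%. Its level in neuronal barcodes was 6.18 CPM in P0 WT (3.77 to 9.54), 5.03 CPM in the library labelled E14.5 KO (3.67 to 6.73) and 7.95 CPM in E14.5 WT (5.28 to 11.5), and in the glial class it was 5.05, 5.17 and 14.3 CPM. In collagen-led barcodes Tsku had 124 CPM in P0 WT (45.6 to 270), 14.1 CPM in the library labelled E14.5 KO (5.69 to 29.1) and 34.3 CPM in E14.5 WT (9.36 to 87.9), from 6, 7 and 4 counts. These 3 levels rest on few counts; only the P0 WT and the labelled E14.5 KO intervals do not overlap. In the library labelled E14.5 KO no barcode had more than 1 Tsku count, and the level was 4.10 CPM in choroid-led barcodes and 4.98 CPM in the rest, near those of the neuronal and glial classes. In endothelial-led barcodes Tsku had 1 count in P0 WT and 0 in both E14.5 libraries. The exact Poisson intervals of these 0 counts reach 7.86 CPM in the library labelled E14.5 KO and 19.7 CPM in E14.5 WT. No class is known to lack the gene, and the part of free RNA in these levels was not tested. A Tsku count was present in 18 of 627 neuronal barcodes of P0 WT, 45 of 2634 of the library labelled E14.5 KO and 25 of 428 of E14.5 WT, against 0 of 653 in P0 KO. With each barcode thinned to 1500 counts, the numbers were 9 of 627, 15 of 2555 and 6 of 428, against 0 in P0 KO.

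**Figure D2:**
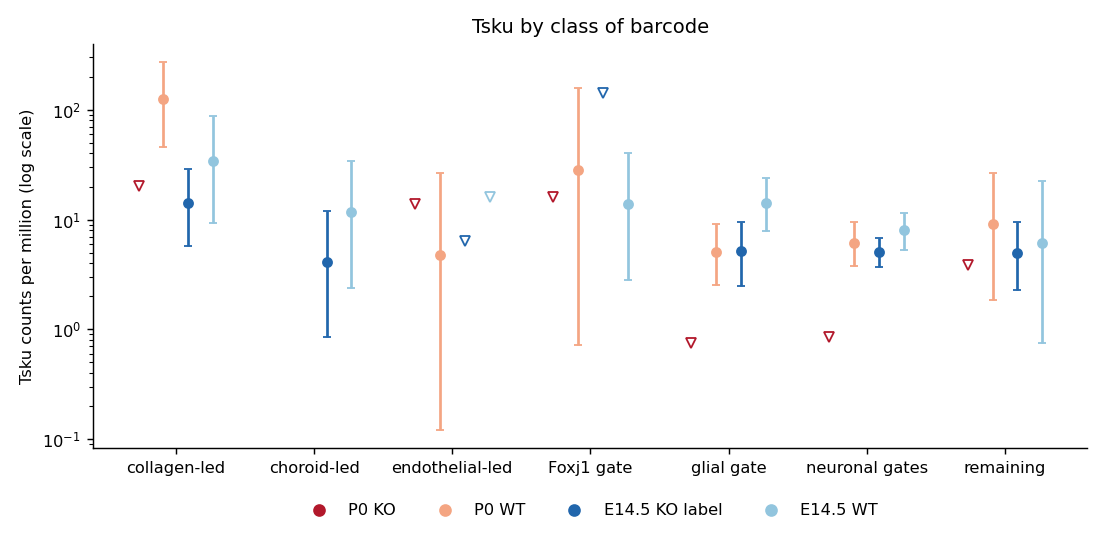
Tsku level by class of barcode, in CPM on a log axis, for the 4 libraries with exact Poisson 95% intervals; open triangles mark the limit that a count of 0 allows. The P0 KO library has only triangles, and in P0 WT the collagen-led barcodes are at 124 CPM against 6.18 CPM in the neuronal barcodes.

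Decorin and lumican, which bind collagen fibrils, were counted almost wholly in collagen-led barcodes. Dcn had 177 counts in P0 KO, 68 in P0 WT, 915 in the library labelled E14.5 KO and 148 in E14.5 WT, and collagen-led barcodes held 96.6%, 100%, 89.2% and 89.2% of them. Lum had 23, 5, 323 and 58 counts in the same order of libraries, with 100%, 100%, 96.6% and 100% in collagen-led barcodes. A Dcn count was seen in 18 of 18 collagen-led barcodes of P0 KO, 6 of 7 of P0 WT, 95 of 104 of the library labelled E14.5 KO and 13 of 14 of E14.5 WT. In neuronal barcodes a Dcn count was seen in 0 of 653, 0 of 627, 20 of 2634 and 3 of 428. In the library labelled E14.5 KO its level was 2.57 CPM in neuronal barcodes, 16.0 CPM in the glial class and 12.2 CPM in the rest. The part of free RNA in these counts was not tested. Within the projection neuron gate itself, before barcodes were placed in classes, Dcn had 3 counts in P0 KO, 0 in P0 WT, 98 in the library labelled E14.5 KO and 21 in E14.5 WT, and 10 of that gate's 1784 barcodes in the library labelled E14.5 KO were also in the fibroblast gate. Of the 11, 2, 78 and 12 collagen-led barcodes with a Lum count, 11, 2, 74 and 12 also had a Dcn count. Since most collagen-led barcodes had a Dcn count, these numbers cannot show a link particular to this pair.

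Biglycan, a relative of decorin that also signals through Toll-like receptors, was divided between collagen-led, endothelial-led and, at P0, glial-class barcodes. It had 132 counts in P0 KO, 74 in P0 WT, 284 in the library labelled E14.5 KO and 131 in E14.5 WT. Collagen-led barcodes held 53.0%, 27.0%, 50% and 55.0% of these, and endothelial-led barcodes 22.7%, 47.3%, 40.8% and 38.2%. In endothelial-led barcodes its level was 140 CPM in P0 KO (94.1 to 199), 167 CPM in P0 WT (117 to 233), 247 CPM in the library labelled E14.5 KO (204 to 297) and 267 CPM in E14.5 WT (198 to 352), and the P0 KO interval lies below that of the library labelled E14.5 KO. The glial class held 22.0% of the Bgn counts in P0 KO and 23.0% in P0 WT. Its Bgn level there was 7.22 and 7.80 CPM, from 29 counts in 20 barcodes and 17 counts in 17 barcodes. A single barcode held at most 8 and 1 of them. Of the glial-class barcodes, 18 of 574 in P0 KO and 1 of 322 in P0 WT also passed the mural gate. The fibroblast gate was passed by 3 and 1, and the part of these barcodes in the Bgn counts was not tested. The glial class held 1 Bgn count in the library labelled E14.5 KO and 0 in E14.5 WT. Asporin, which binds collagen and the growth factor TGF-beta, was nearly absent with 4, 2, 2 and 1 counts. All 4 of its P0 KO counts, both P0 WT counts and the E14.5 WT count were in endothelial-led barcodes. Of the endothelial-led barcodes, 6 of 22 in P0 KO and 10 of 23 in P0 WT also passed the mural gate. So did 31 of 58 in the library labelled E14.5 KO and 8 of 12 in E14.5 WT. The part of mural cells in the Bgn and Aspn counts of this class was not tested.

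**Figure D3:**
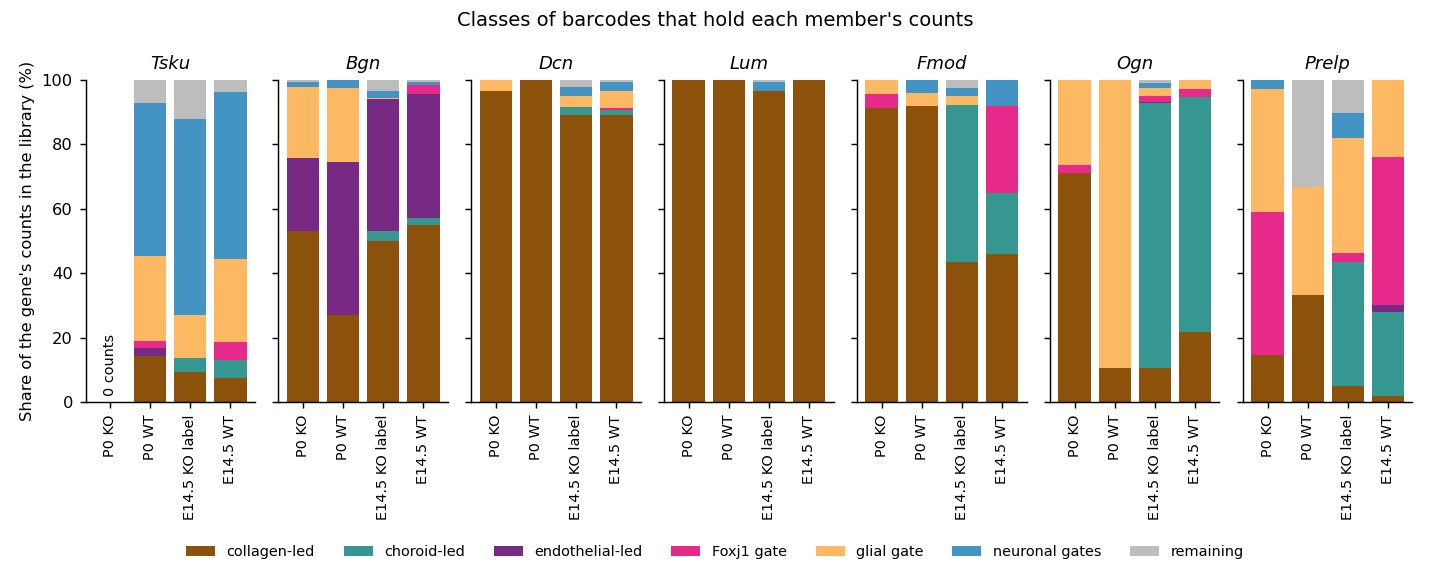
Share of each gene's counts held by the 7 classes of barcodes, in percent of the gene's counts in that library, with the number of counts behind each bar given in the text; Omd and Aspn, with 8 counts or fewer in each library, are left out. Dcn and Lum lie almost wholly in collagen-led barcodes. Bgn is divided between collagen-led, endothelial-led and, at P0, glial-class ones. At E14.5 Ogn lies mainly in choroid-led ones (82.3% in the library labelled E14.5 KO and 72.9% in E14.5 WT).

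Osteoglycin, first known from bone, lay mainly in choroid plexus barcodes at E14.5. It had 38 counts in P0 KO, 19 in P0 WT, 412 in the library labelled E14.5 KO and 133 in E14.5 WT. Choroid-led barcodes, of which there were 125 and 20 at E14.5 and 0 in both P0 libraries, held 82.3% of the counts in the library labelled E14.5 KO and 72.9% in E14.5 WT. Their Ogn level was 463 CPM (415 to 515) in the library labelled E14.5 KO and 376 CPM (305 to 458) in E14.5 WT, while collagen-led barcodes had 86.9 CPM (62.9 to 117) and 249 CPM (167 to 358). An Ogn count was present in 99 of 125 and 15 of 20 choroid-led barcodes, and in 18 of 104 and 6 of 14 collagen-led ones. A single choroid-led barcode of 49394 counts held 39 of the 133 Ogn counts of E14.5 WT. With barcodes thinned to 3000 counts, Ogn was seen in 57 of 88 and 11 of 20 choroid-led barcodes, against 10 of 73 and 4 of 14 collagen-led ones. Dcn was counted in 19 of 125 and 2 of 20 choroid-led barcodes, and 16 and 2 of these also had an Ogn count. At P0, where no choroid-led barcode was captured, collagen-led barcodes held 71.1% of the Ogn counts in P0 KO and 10.5% in P0 WT, and the glial class 26.3% and 89.5%.

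**Figure D4:**
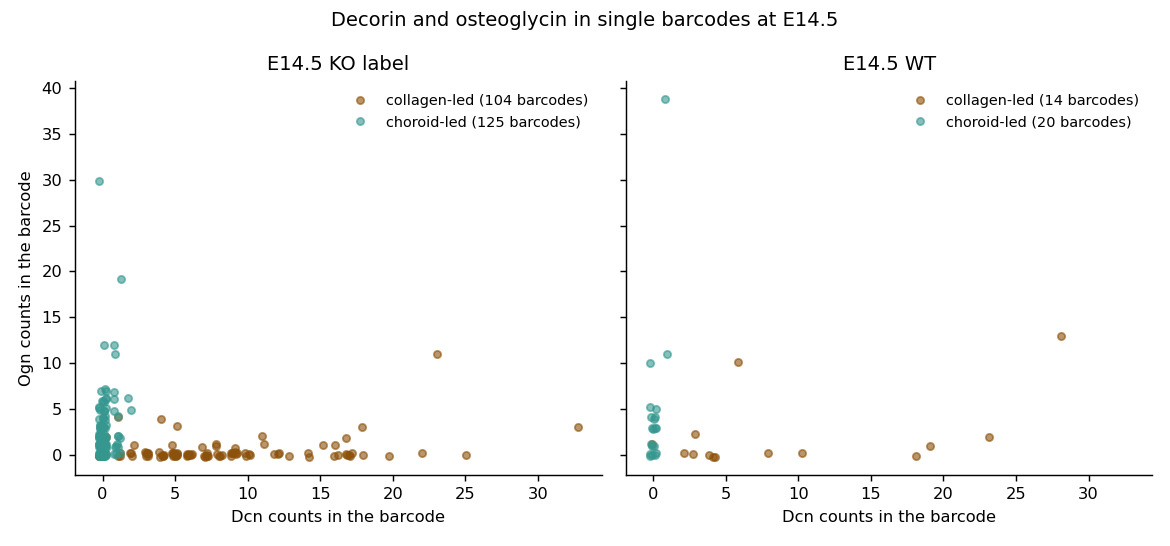
Counts of Dcn (x axis) and Ogn (y axis) in each collagen-led or choroid-led barcode of the library labelled E14.5 KO (left) and of E14.5 WT (right), with small random shifts so that points do not cover each other. Choroid-led barcodes reach 30 and 39 Ogn counts with at most 2 and 1 Dcn counts, and collagen-led barcodes reach 33 and 28 Dcn counts with at most 11 and 13 Ogn counts.

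Fibromodulin, which binds collagen and takes part in its cross-linking, was held by collagen-led barcodes at P0 and by several classes at E14.5. It had 46 counts in P0 KO, 25 in P0 WT, 39 in the library labelled E14.5 KO and 37 in E14.5 WT. Collagen-led barcodes held 91.3%, 92%, 43.6% and 45.9% of them. At E14.5 choroid-led barcodes held a further 48.7% in the library labelled E14.5 KO and 18.9% in E14.5 WT. The Foxj1 gate held 27.0% in E14.5 WT, with 5 and 4 of its counts in barcodes of 65261 and 88266 counts. Both of these barcodes also passed the fibroblast and choroid plexus gates. Few collagen-led barcodes of E14.5 had the gene at all: 4 of 104 in the library labelled E14.5 KO and 3 of 14 in E14.5 WT, against 9 of 18 in P0 KO and 5 of 7 in P0 WT. After thinning to 3000 counts these were 3 of 73 and 1 of 14 at E14.5, and 7 of 18 in P0 KO and 3 of 7 in P0 WT.

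Prelp, a member whose basic end binds heparin, was counted mainly in the Foxj1 gate, the glial class and, at E14.5, choroid-led barcodes. It had 34 counts in P0 KO, 3 in P0 WT, 39 in the library labelled E14.5 KO and 50 in E14.5 WT. The Foxj1 gate, with 23, 4, 6 and 6 barcodes, held 44.1%, 0%, 2.56% and 46% of them. The glial class held 38.2%, 33.3%, 35.9% and 24%, and choroid-led barcodes held 38.5% in the library labelled E14.5 KO and 26% in E14.5 WT. Its level in the Foxj1 gate was 80.3 CPM in P0 KO (45.0 to 133) and 105 CPM in E14.5 WT (66.8 to 158), against 0 counts in P0 WT and 1 count in the library labelled E14.5 KO. In E14.5 WT, 2 Foxj1-gate barcodes of 88266 and 65261 counts held 13 and 9 of the 50 counts. The first of them was the deepest of that library, and both also passed the fibroblast and choroid plexus gates. A glial-class barcode of 11531 counts held 4 more and passed the same 2 gates. The choroid-led share of E14.5 WT leaves out the counts of these barcodes. The class shares of Prelp there cannot tell these gates apart. Osteomodulin, known from mineralising bone, had 8, 4, 1 and 1 counts, of which 0, 1, 0 and 1 lay in collagen-led barcodes.

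P0 KO was next set against P0 WT over the whole libraries. Of the 6 members with at least 30 counts over both libraries, 2 were past the 2-fold mark, against 4.77% of all 13846 genes measured. Prelp was higher, and Tsku, the targeted gene, was lower. The Tsku call follows from the knockout and uses the 3 counts set for a sum of 0. Prelp is therefore the only call among the members that were not targeted. Lum, Omd and Aspn had too few counts. The median over the 6 members, Tsku included, was 0.38, beside 0.05 over all genes. Prelp had 3.82 CPM in P0 KO (2.65 to 5.34) and 0.497 CPM in P0 WT (0.102 to 1.45), a log2 ratio of 2.94 (1.28 to 5.29), with a count in 28 of the P0 KO barcodes and 3 of the P0 WT barcodes. The numbers of barcodes in the Foxj1 gate, 23 in P0 KO and 4 in P0 WT, moved with it, and their part in the result was not tested. The glial class had 13 Prelp counts in P0 KO (3.24 CPM) and 1 in P0 WT (0.459 CPM). Dcn had 19.9 CPM in P0 KO and 11.3 CPM in P0 WT (log2 0.82, 0.41 to 1.25), and the share of collagen-led barcodes was 1.25% in P0 KO and 0.669% in P0 WT. In P0 WT, 2 barcodes held 28 and 26 of the 68 Dcn counts. Without the barcode with the most counts in each library the Dcn ratio was 1.29, past the mark. Bgn (0.28), Fmod (0.32) and Ogn (0.44) had intervals that include 0. Within the fibroblast gate 0 of 3 members measured (Bgn, Dcn and Fmod) were past the mark, against 15.6% of all genes, and within collagen-led barcodes again 0 of 3, against 16.9%. There Dcn had 1153 CPM in P0 KO (987 to 1340) and 1408 CPM in P0 WT (1093 to 1785), Bgn 472 and 414 CPM, and Fmod 283 and 476 CPM; every interval of these ratios includes 0, from 18 and 7 barcodes.

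The library labelled E14.5 KO was set against E14.5 WT in the same way. Over the whole libraries 4 of 7 members measured were past the mark, against 6.51% of 14136 genes, with medians of −0.25 over the members and 0.06 over all genes. Dcn was higher, at 63.5 CPM in the library labelled E14.5 KO against 26.4 CPM in E14.5 WT (log2 1.27, 1.01 to 1.53), and so was Lum, at 22.4 against 10.3 CPM (1.12, 0.71 to 1.55). Fmod was lower, at 2.71 against 6.60 CPM (−1.29, −1.97 to −0.60), and so was Prelp, at 2.71 against 8.92 CPM (−1.72, −2.36 to −1.09). Without the 5% deepest barcodes of each library Dcn was at 0.92, Lum at 0.69 and Prelp at −0.81, all within the 2-fold mark. Bgn (−0.25) and Ogn (0.27) had intervals that include 0. The fibroblast gate held 4 of 6 members past the mark, against 19.1% of genes: Dcn at 1.88 and Lum at 1.71 were higher, Fmod at −1.24 and Prelp at −4.67 lower. In this gate 2 of 117 barcodes of the library labelled E14.5 KO and 6 of 25 of E14.5 WT had a Prelp count. The Prelp ratio rests on 2 and 31 counts, 13 and 9 of the 31 from the 2 deep Foxj1-gate barcodes that also passed this gate; in collagen-led barcodes Prelp had 2 and 1 counts and was not measured. Collagen-led barcodes gave another picture, with 3 of 5 members past the mark, all lower, against 17.9% of genes. Dcn was at 1648 CPM in the library labelled E14.5 KO and 1133 CPM in E14.5 WT (0.54, 0.27 to 0.82), and Lum at 630 and 498 CPM (0.34, −0.07 to 0.77). Lower ones were Bgn, at 287 against 618 CPM (−1.11, −1.53 to −0.68), Ogn, at 86.9 against 249 CPM (−1.52, −2.23 to −0.79), and Fmod, at 34.3 against 146 CPM (−2.09, −3.15 to −1.03). Without the barcode with the most counts of the gene in each library, Bgn was at −0.81, Ogn at −1.21 and Fmod at −1.34. The median depth of these barcodes also differed, 4305 counts in the library labelled E14.5 KO and 7486.5 in E14.5 WT.

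P0 was compared with E14.5 in wild type and, apart, in the libraries labelled knockout. Over whole libraries of wild type, 4 of 7 members were lower at P0 past the mark, against 11.2% of 13270 genes either way, with medians of −1.23 over the members and 0.07 over all genes. These were Dcn (11.3 CPM in P0 WT against 26.4 CPM in E14.5 WT, log2 −1.23), Lum (0.828 against 10.3 CPM, −3.64), Ogn (3.14 against 23.7 CPM, −2.92) and Prelp (0.497 against 8.92 CPM, −4.17). In the libraries labelled knockout Dcn (19.9 against 63.5 CPM, −1.67), Lum (2.59 against 22.4 CPM, −3.12) and Ogn (4.27 against 28.6 CPM, −2.74) were lower at P0. Tsku, the targeted gene, was also called lower, with its 0 counts in P0 KO set to 3. With Tsku this made 4 of 7, against 19.1% of 14727 genes. The medians were −1.67 over the members, Tsku included, and 0.07 over all genes. Prelp there was at 3.82 CPM in P0 KO against 2.71 CPM in the library labelled E14.5 KO (0.50, −0.21 to 1.20). The share of collagen-led barcodes, 1.25% in P0 KO against 2.53% in the library labelled E14.5 KO and 0.669% in P0 WT against 2.26% in E14.5 WT, and that of choroid-led barcodes, 0 at P0, moved with these sums. A library sum cannot tell fewer cells from less RNA in each.

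Within collagen-led barcodes, where the number captured no longer enters, lumican and fibromodulin differed between ages in opposite directions and decorin by less than 2-fold. Of 5 members measured, 3 were past the mark in wild type, against 20.3% of genes, and 3 in the libraries labelled knockout, against 18.8%. Lum had 104 CPM in P0 WT (33.6 to 242) against 498 CPM in E14.5 WT (378 to 644), a log2 ratio of −2.27 (−3.94 to −0.96). It had 155 CPM in P0 KO (98.3 to 233) against 630 CPM in the library labelled E14.5 KO (562 to 704), a ratio of −2.02 (−2.70 to −1.41). Both P0 intervals lie below both E14.5 intervals. Fmod had 476 CPM in P0 WT (302 to 714) against 146 CPM in E14.5 WT (85.0 to 234), a ratio of 1.71 (0.74 to 2.70), and 283 CPM in P0 KO (204 to 383) against 34.3 CPM in the library labelled E14.5 KO (20.0 to 55.0), a ratio of 3.04 (2.20 to 3.95). A single barcode held 12 of the 17 Fmod counts in collagen-led barcodes of E14.5 WT, and without the barcode with the most counts in each library the ratios were 3.07 in wild type and 3.75 in the libraries labelled knockout. Lum without such barcodes was at −3.11 and −2.27. Dcn was at 0.31 (−0.13 to 0.75) in wild type and −0.52 (−0.76 to −0.28) in the libraries labelled knockout, and Bgn at −0.58 (−1.37 to 0.15) and 0.72 (0.29 to 1.14). Ogn was at −2.59 in wild type, from 2 and 29 counts, and at 1.07 (0.32 to 1.80) in the libraries labelled knockout; in the whole fibroblast gate it was at −3.67 and, within the mark, at −0.35 (−1.02 to 0.28). Arachnoid genes also differed between the ages in collagen-led barcodes, and their part in these results was not tested. Of the arachnoid list 3 of 4 genes measured were higher and 0 lower in P0 WT over E14.5 WT (median 2.03), and 3 of 6 were higher and 1 lower in P0 KO over the library labelled E14.5 KO (median 0.65). Ptgds, an arachnoid enzyme of prostaglandin synthesis, had 14637 CPM in P0 WT against 51.5 CPM in E14.5 WT, and 2954 CPM in P0 KO against 40.4 CPM in the library labelled E14.5 KO. Of the pial list 0 of 3 and 0 of 4 genes were past the mark (medians 0.36 and −0.00). With the whole fibroblast gate the share of genes past the mark was 26.2% in wild type and 17.1% in the libraries labelled knockout; 4 of 6 and 2 of 5 members were past it, with Lum at −1.62 and −2.29 and Fmod at 1.74 and 2.69.

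**Figure D5:**
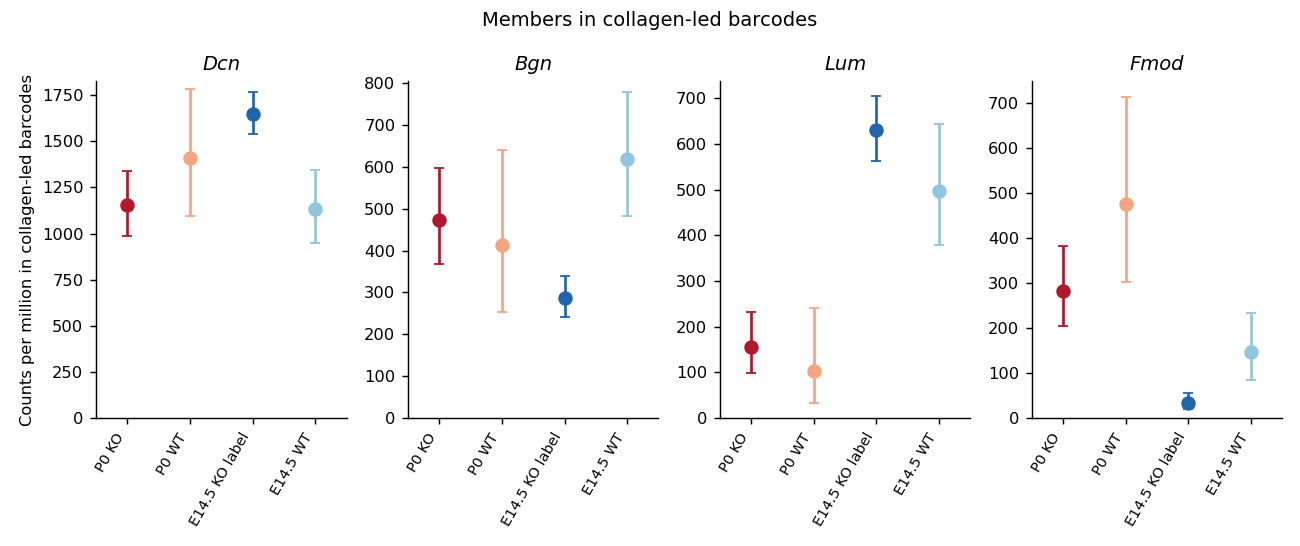
Level of Dcn, Bgn, Lum and Fmod in collagen-led barcodes of each library (18 in P0 KO, 7 in P0 WT, 104 in the library labelled E14.5 KO and 14 in E14.5 WT), in CPM with exact Poisson 95% intervals for counting error. Lum lies lower and Fmod higher in both P0 libraries than in both E14.5 libraries, while the Dcn levels of the ages interleave.

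Set against the remaining barcodes of the same library, the members measured in the fibroblast gate were mostly higher there. Those at least 2-fold higher were 5 of 5 in P0 KO (16.7% of all genes), 3 of 3 in P0 WT (23.8%), 5 of 7 in the library labelled E14.5 KO (16.6%) and 7 of 7 in E14.5 WT (16.9%). The other members had under 30 counts. A gene counted only where collagen genes are counted reaches that number only through the gate, so these counts describe the members measured. Dcn had 636 CPM in the gate of P0 KO (log2 9.84 over the remaining barcodes). Its log2 ratio was 7.29 in the library labelled E14.5 KO and 7.01 in E14.5 WT. In P0 WT it was 10.12, with the sum of 0 in the remaining barcodes set to 3 counts. Tsku, by comparison, was at 3.30 in P0 WT, 0.94 in the library labelled E14.5 KO and 1.18 in E14.5 WT. Prelp was at 4.21 in E14.5 WT but at −0.056 with collagen-led barcodes in place of the gate.

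The genes whose pattern over the gates was most like each member's were sought by Pearson correlation of log2(CPM + 10) over 44 combinations of gate and library, among 12964 genes. Gates overlap and share libraries, so these values are descriptions. Dcn was most like Col6a1 (0.97), a chain of the collagen that decorin binds, followed by Ccn4, Slc6a13, Edn3 and Col6a3. Lum was most like Osr1 (0.99) and Tfap2b (0.97), transcription factors, then Col6a2, Col6a3 and Lrrc17. Bgn was most like Col4a1 (0.98), Nid1 and Col4a2, components of basement membrane, then Foxc1 and Adgra2. Fmod was most like Bmp6 (0.93), then Gxylt2, Col4a6, Islr and Mmp2. Ogn was most like Fxyd1 (0.93) and Aqp1 (0.92), the second the water channel of choroid plexus epithelium, then Aebp1, Igsf1 and Msx1. Prelp was most like Wfdc2 (0.91), then Mia, Glis3, Cnmd and Lgr6. Tsku had no close match, its highest value being 0.62 for Wnt9a, ahead of Gm4835, Ndufab1, mt-Atp6 and Ube2m.

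Genes that work with the family were read from lists. Their counts past the mark, here and below, stand beside the shares of all genes past it in either direction: 4.77% in P0 KO over P0 WT, 6.51% in the library labelled E14.5 KO over E14.5 WT, 11.2% in P0 WT over E14.5 WT and 19.1% in P0 KO over the library labelled E14.5 KO. Of 15 collagens and fibril partners, 13 were measured in P0 KO over P0 WT, with 5 higher (Col5a1, Col5a2, Col6a1, Col6a2 and Col12a1) and 0 lower past the mark (median 0.66 beside 0.05 over all genes), 13 in the library labelled E14.5 KO over E14.5 WT, with 3 higher (Col6a1, Col6a2 and Lox) and 0 lower (median 0.40), and 13 in P0 WT over E14.5 WT, with 1 higher (Col5a3) and 5 lower (Col5a1, Col5a2, Col6a1, Col6a2 and Col6a3; median −0.49). In P0 KO over the library labelled E14.5 KO 3 of 14 were higher (Eln, Col12a1 and Col5a3) and 7 lower (median −0.94). Col5a2, a fibril-nucleating collagen, had 21.0 CPM in P0 KO, 10.3 in P0 WT, 48.7 in the library labelled E14.5 KO and 28.2 in E14.5 WT. Fn1, fibronectin, had 42.9, 64.1, 87.3 and 69.9 CPM in the same order, Bmp1, the protease that trims procollagen, 53.4, 39.2, 34.4 and 28.2 CPM, and Fbn1, fibrillin, 16.5, 11.6, 19.9 and 21.4 CPM. Within collagen-led barcodes 0 of 9 of this list were higher and 2 lower (Eln and Lox) in P0 KO over P0 WT, against 16.9% of all genes past the mark, and 0 of 11 were past it in the library labelled E14.5 KO over E14.5 WT, against 17.9%.

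Enzymes that build the sugar chains were read in the same way. Of 15 genes of chondroitin and dermatan sulfate synthesis, 1 was higher (Csgalnact1) and 0 lower in P0 KO over P0 WT, 0 in either direction in the library labelled E14.5 KO over E14.5 WT, 1 higher (Xylt1) and 1 lower (Dse) in P0 WT over E14.5 WT, and 4 higher (Xylt1, Xylt2, Chst11 and Csgalnact1) and 0 lower in P0 KO over the library labelled E14.5 KO. Xylt1, which starts the chains, had 68.0 CPM in P0 KO, 47.3 in P0 WT, 14.4 in the library labelled E14.5 KO and 8.92 in E14.5 WT, while Fam20b, a kinase of the linker sugar, had 65.8, 54.8, 59.6 and 55.5 CPM. Chsy1 and Dsel were within the mark in all these comparisons. Of 4 keratan sulfate genes measured, 0 were past the mark in either comparison of knockout label with wild type; 1 of 4 was higher at P0 in wild type and 1 of 6 in the libraries labelled knockout, in both cases Chst2, a sulfotransferase (1.03 and 1.31). Chst1, B4galt1 and B4galt4 were within the mark in all of them.

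The list of ligands and receptors that Tsukushi is reported to act on had 8 measured genes in P0 KO over P0 WT, with 2 higher, Bmp4 (6.18 CPM in P0 KO against 1.66 CPM in P0 WT) and Chrd (10.0 against 4.14 CPM), and 0 lower. In the library labelled E14.5 KO over E14.5 WT, Dll1, a Notch ligand, was higher (68.3 against 24.8 CPM) and Fgf8 lower (1.18 against 5.89 CPM), of 9. The Fgf8 call rests on 17 and 33 counts. In E14.5 WT Fgf8 had 63.8 CPM in the fibroblast gate, with 0 counts in collagen-led barcodes. The part of the other barcodes of that gate in the Fgf8 call was not tested. In P0 WT over E14.5 WT 0 of 9 were higher and 2 lower, Bmp4 and Fgf8, the second with its 0 counts in P0 WT set to 3. In P0 KO over the library labelled E14.5 KO 0 of 8 were past the mark. The most counted of the list were Notch1, with 225, 163, 113 and 84.0 CPM in the 4 libraries, Dll1, Bmp7 and Fzd4; Bmp7 and Fzd4 stayed within the mark. Of the receptors of biglycan and decorin signalling, 0 of 6 were past the mark in P0 KO over P0 WT, 1 of 6 was lower in the library labelled E14.5 KO over E14.5 WT (Met, −1.89), 1 of 5 higher in P0 WT over E14.5 WT (Egfr, 58.8 against 6.06 CPM) and 2 of 7 higher in P0 KO over the library labelled E14.5 KO (Egfr and Met). Igf1r, Lrp1 and Kdr were within the mark throughout.

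Of 9 further family members, 3 or 4 could be measured. Ecm2 had 59 counts in P0 KO, 12 in P0 WT, 63 in the library labelled E14.5 KO and 73 in E14.5 WT, and was the 1 past the mark in P0 KO over P0 WT (1.74), in the library labelled E14.5 KO over E14.5 WT (−1.57) and, with Podn (−1.54), in P0 WT over E14.5 WT (−2.71); Chadl was past it in P0 KO over the library labelled E14.5 KO (1.24), and Optc in neither comparison in which it was measured. Only 2, 0, 6 and 0 of the Ecm2 counts lay in collagen-led barcodes. Genes of the pial layer had 0 of 4 past the mark in P0 KO over P0 WT, 1 higher in the library labelled E14.5 KO over E14.5 WT (Lama1, 1.24), and 2 lower at P0 in wild type and in the libraries labelled knockout, Col18a1 (−2.32 and −1.74) and Ngfr (−2.49 and −2.21), with S100a6 within the mark. Of 6 arachnoid genes 0 were higher and 1 lower in P0 KO over P0 WT (Ptgds, −1.07), 3 higher and 0 lower in the library labelled E14.5 KO over E14.5 WT (Cldn11, Aldh1a2 and Crabp2), 2 higher (Ptgds and Aldh1a2) and 1 lower (Angptl2) in P0 WT over E14.5 WT, and 1 higher (Ptgds) and 2 lower (Cldn11 and Crabp2) in P0 KO over the library labelled E14.5 KO; Slc6a13 was within the mark in each. The dural list had 2 genes measured in P0 KO over P0 WT and in P0 KO over the library labelled E14.5 KO, and 1 in the other comparisons, where Fxyd5 was lower in the library labelled E14.5 KO over E14.5 WT (−1.28) and no other call was made; its Mgp and Foxc2 had 22 and 20 counts in all 4 libraries, and Dpp4 had 53.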

How the data were processed

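Cerebral cortex of 4 mice was profiled, 1 library per group. The authors deposited whole-number counts per gene and barcode; the submitters' processing notes list GRCm39, R 4.3.2, Seurat 5 and FastQC 0.12.1 without saying what each did. No source used here gives the aligner, annotation, strand or collapsing of reads to molecules, so counts may not be independent molecules. A barcode was kept if it had 500 counts or more over 300 genes or more, of which mitochondrial ones made up no more than 10% (deposited totals 8959784, 6136897, 14423600 and 5607941 counts in P0 KO, P0 WT, E14.5 KO and E14.5 WT); no doublet caller was run. Counts were summed over a library, gate or class and scaled to 1000000 counts. Ratios needed 30 counts or more in the 2 sums together, with a sum of 0 set to 3 counts; a gene past 2-fold was called. Intervals are 95% and cover counting error only. The calculation was tested on simulated data.

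The named genes were the 9 members, for each member with at least 60 counts the 5 genes of highest correlation among genes with at least 100 counts, and the 4 most counted genes of each list; other list genes named were chosen after their values were seen. The members and lists were chosen with earlier results of these data known, and the 7 classes, with their comparisons, were added after the data were seen. The lists were other small leucine-rich proteoglycans, collagens and fibril partners, chondroitin and dermatan sulfate synthesis, keratan sulfate synthesis, Tsukushi ligands and receptors, receptors of biglycan and decorin, and pial, arachnoid and dural genes. Alternatives were no barcode filter, removal of the 5% deepest barcodes or of a gene's top barcode, thinning to 1500 counts, other scaling (edgeR 4.0.16 and DESeq2 1.42.0 in R 4.3.3, for factors only), no count minimum and other gates. Analyses used Python 3.11.15, numpy 2.4.6, scipy 1.17.1 and pandas 2.3.3. RefSeq promoter windows were matched by symbol.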

Additional observations from a re-analysis of the deposited data

Results flagged for a closer look

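Prelp lay in opposite directions at the 2 ages in whole libraries: the log2 ratio was 2.94 (1.28 to 5.29) in P0 KO over P0 WT and −1.72 (−2.36 to −1.09) in the library labelled E14.5 KO over E14.5 WT. The difference between the ages was not tested, since each group is 1 library. The Foxj1 gate held 15 of the 34 counts in P0 KO and 0 of 3 in P0 WT. It held 1 of 39 in the library labelled E14.5 KO and 23 of 50 in E14.5 WT. Of these 23, 13 and 9 lay in 2 barcodes of 88266 and 65261 counts. Both of these barcodes also passed the fibroblast and choroid plexus gates. Without the 5% deepest barcodes of each library the E14.5 ratio was within the 2-fold mark. Over whole libraries the genes of that gate were at these levels: Foxj1 had 26.2 CPM in P0 KO and 11.9 CPM in P0 WT, and 21.0 CPM in the library labelled E14.5 KO and 34.8 CPM in E14.5 WT. Ccdc153 had 14.8 CPM in P0 KO and 11.1 CPM in P0 WT, and 0.208 CPM in the library labelled E14.5 KO and 1.96 CPM in E14.5 WT. Rsph1 had 18.1 CPM in P0 KO and 12.1 CPM in P0 WT, and 11.9 CPM in the library labelled E14.5 KO and 17.5 CPM in E14.5 WT.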

How the results depend on the processing

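No paired analysis was possible because each group has 1 library. The 2 members past 2-fold in P0 KO over P0 WT became 1 without the 5% deepest barcodes and 1 after thinning to 1500 counts, and the 4 in the library labelled E14.5 KO over E14.5 WT became 1 and 2; the 4 in P0 WT over E14.5 WT became 1 after thinning. Members at least 2-fold higher in the fibroblast gate than in the remaining barcodes became 2 in P0 KO without the 5% deepest barcodes, and after thinning 1 in P0 KO, 0 in P0 WT and 0 in E14.5 WT. Thinning leaves fewer members with 30 counts by construction. Without the barcode with the most counts of the gene in each library, Dcn was also past 2-fold in P0 KO over P0 WT. The share of fibroblast-gate barcodes was 0.139%, 0.287%, 0.706% and 0.323% in P0 KO, P0 WT, the library labelled E14.5 KO and E14.5 WT when barcodes of other gates were left out; it was 3.80% in the library labelled E14.5 KO at 2 collagen counts, and collagen-led barcodes were 2.26% of E14.5 WT. Prelp in the gate of E14.5 WT over the remaining barcodes was 4.21, and −0.056 with collagen-led barcodes. Of 339 log2 ratios under alternatives, 277 moved by less than the counting interval, 61 moved further and 1 reversed. Levels moved further in 109 of 210 cases per gate and in 36 of 144 per library. With barcodes of other gates left out, 91 gate levels moved further and 13 did not. For log2 ratios of the fibroblast gate these numbers were 15 and 7. TMM and median-of-ratios scaling left every called direction of the members in whole libraries as it was. At this depth Omd and Aspn could be compared between no pair of libraries, and Lum not between the P0 libraries.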
